A study of Mus musculus with 12 samples.

Results

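The 9 genes described here encode inhibitory checkpoint ligands, and a receptor for one of them, with which dendritic cells (DCs) and their partners hold back T cells and phagocytes. They are Cd274, Pdcd1lg2, Lgals9, Havcr2, Pvr, Nectin2, Cd47, Cd200 and Vsir, taken by name from the 55401 genes of the count table. All 9 were in the table, and 8 passed the filter on low counts (log2 of CPM, the counts scaled to a common library size, above 0 in 2 libraries or more), which 14079 genes passed. Cd200 did not. RNA was measured by bulk sequencing of Sp37A3 cells, a DC line derived from mouse spleen. Control cells had been transduced with an empty vector (CtrV). Cells of the other line were CRISPR/Cas9-edited at Siglece, which encodes the inhibitory sialic acid receptor Siglec-E, and are a pool of several single-cell clones (EKO). Both lines grew in GM-CSF and M-CSF, and every culture received lipopolysaccharide (LPS) and was kept for 24 h. Before LPS, cells were pulsed with ovalbumin (OVA, 0.1 mg/ml for 2 h) or left unpulsed, which gave 4 groups of 3 libraries with 27116201 to 39698572 counts each. The labels number the replicates but do not say that they are separate cultures, so p-values measure the spread between these libraries.

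Checkpoint ligands set the threshold of an immune response from the side of the antigen-presenting cell. PD-L1 (Cd274) and PD-L2 (Pdcd1lg2) engage PD-1 on T cells, galectin-9 (Lgals9) binds Tim-3 (Havcr2), CD155 (Pvr) and CD112 (Nectin2) bind Tigit, VISTA (Vsir) restrains T cells at acidic pH through PSGL-1, CD47 signals to SIRPα on phagocytes, and CD200 signals to CD200 receptors on myeloid cells. Several of them are known to be induced in DCs by interferons and Toll-like receptor ligands, together with the co-stimulators they oppose.

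Siglece mRNA did not fall in the libraries labelled EKO. It measured 151.7, 153.5 and 163.4 CPM in OVA-pulsed CtrV cells and 174.4, 208.2 and 201.8 CPM in OVA-pulsed EKO-labelled cells. In unpulsed cells it was 153.4, 150.2 and 162.1 CPM in CtrV and 166.0, 221.6 and 235.2 CPM in EKO-labelled libraries. The fitted difference was 0.31 log2 units (SE 0.08, adjusted p = 0.011) with OVA and 0.41 (SE 0.08, adjusted p = 0.0026) without it, by the quasi-likelihood test of edgeR, Benjamini-Hochberg adjusted over all tested genes, which also gave every other adjusted p below. An edited allele can still be transcribed, so mRNA does not check the loss of the protein, and the libraries are called EKO-labelled throughout. Per the paper, the clones had been screened for Siglec-E expression, and those pooled showed little or none. All 8 DC markers examined passed the filter, with summed levels of 20630 to 22730 CPM in CtrV and 19660 to 22320 CPM in EKO-labelled libraries. This sum was mostly Cd74 (13960 to 18270 CPM) and hides differences of single markers. With OVA, Flt3 (1.74 log2 units), Batf3 (1.67), Irf8 (1.35), H2-Ab1 (0.515) and Ptprc (0.32) were higher and Itgax (-0.27) was lower, each with an adjusted p under 0.05. Zbtb46 (-0.11) and Cd74 (-0.12) did not pass the test. None of the T cell, B cell, NK cell, erythroid or fibroblast markers passed the filter. Of 3 epithelial markers 2 passed, with 577.7 to 658.6 CPM in CtrV and 179.3 to 207.7 CPM in EKO-labelled libraries, and all 4 macrophage markers passed, with 1376 to 1575 and 1884 to 2191 CPM. The epithelial sum followed Cdh1, which DCs also express (-1.90 log2 units with OVA, adjusted p = 1.7e-08), while Epcam did not pass (0.31, adjusted p = 0.051). In the macrophage list C1qa (1.04) and C1qb (0.61) were higher, and Adgre1 (-0.03) and Mertk (-0.32) did not pass. The part of these lists in the differences below was not tested. In bulk RNA, fewer cells that express a gene and less RNA per cell cannot be told apart.

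The genes lie on 5 chromosomes of GRCm38 (GENCODE annotation). Cd274 (chr19:29367455-29388095, plus strand) and Pdcd1lg2 (chr19:29410919-29471161, plus strand) are neighbours with 22823 bases between them. Lgals9 (chr11:78962974-78984946, minus strand) and Havcr2 (chr11:46454935-46481255, plus strand) are far apart on chromosome 11. Nectin2 (chr7:19716644-19750483) and Pvr (chr7:19903578-19921160) lie on the minus strand of chromosome 7 with 153094 bases between them. Cd200 (chr16:45382135-45409053, minus strand) and Cd47 (chr16:49800533-49915010, plus strand) share chromosome 16, and Vsir (chr10:60346851-60372684, plus strand) is on chromosome 10.

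Of the 250 bases before each RefSeq start site (GRCm38.p6), those of 4 genes matched a motif of the 4 searched on both strands. The windows with a match are shown. Their genes were all higher in OVA-pulsed EKO-labelled cells, as were Vsir and Cd47, whose windows held no match. RefSeq windows were found for 8 of the 9 genes, not for Pvr. The motifs were the interferon regulatory factor element GAAANNGAA, the STAT element TTCNNNGAA, the NF-κB consensus and the AP-1 element TGANTCA, and capitals mark the match. Cd274 (chr19:29367188-29367437, plus strand) and Lgals9 (chr11:78984947-78985174, minus strand, the part outside the annotated gene) hold GAAANNGAA in reverse, Pdcd1lg2 (chr19:29410669-29410918, plus strand) holds the NF-κB consensus, and Havcr2 (chr11:46454681-46454930, plus strand) holds TGANTCA. All are written 5′ to 3′ in the direction of the gene.
Cd274: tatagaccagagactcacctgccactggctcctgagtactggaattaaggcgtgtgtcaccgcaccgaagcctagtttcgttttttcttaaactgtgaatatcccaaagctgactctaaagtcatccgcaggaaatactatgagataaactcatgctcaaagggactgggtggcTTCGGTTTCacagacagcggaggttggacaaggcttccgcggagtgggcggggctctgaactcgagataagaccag
Pdcd1lg2: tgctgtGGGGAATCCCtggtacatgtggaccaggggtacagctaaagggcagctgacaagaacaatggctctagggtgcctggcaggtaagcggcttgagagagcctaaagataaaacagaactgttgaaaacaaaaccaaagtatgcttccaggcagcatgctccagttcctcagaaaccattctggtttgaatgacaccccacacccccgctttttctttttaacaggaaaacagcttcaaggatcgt
Lgals9: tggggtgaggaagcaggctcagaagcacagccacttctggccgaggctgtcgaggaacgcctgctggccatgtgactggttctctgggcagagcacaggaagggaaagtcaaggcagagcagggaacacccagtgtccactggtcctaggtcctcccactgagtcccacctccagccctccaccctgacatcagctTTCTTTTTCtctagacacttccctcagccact
Havcr2: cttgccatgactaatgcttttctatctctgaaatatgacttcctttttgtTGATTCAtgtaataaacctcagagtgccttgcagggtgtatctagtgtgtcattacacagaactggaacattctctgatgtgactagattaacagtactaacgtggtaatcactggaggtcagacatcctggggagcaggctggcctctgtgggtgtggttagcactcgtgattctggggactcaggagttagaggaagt
The match in Cd274 spans bases -76 to -68 from the start and that in Lgals9 bases -54 to -46. The match in Pdcd1lg2 lies at -244 to -235 and that in Havcr2 at -200 to -194. Among 32851 windows of the same length over all genes, 7.13% held GAAANNGAA, 7.02% TTCNNNGAA, 7.25% the NF-κB consensus and 6.75% TGANTCA. The share with any of the 4 motifs was not computed, so the count of 4 genes cannot be set against these shares. No match was found in the windows of Nectin2, Cd200, Vsir and Cd47. The windows of Nectin2 and Cd47 lie inside the annotated span of the gene and not before it. A match is a description of these letters and not evidence that a factor binds there.

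In OVA-pulsed cells, 7 of the 8 tested checkpoint genes were higher in EKO-labelled than in CtrV cells, none was lower, and Nectin2 did not pass the test. In unpulsed cells 6 of 8 were higher, and Pdcd1lg2 and Nectin2 did not pass. The background was large: 25.1% of all tested genes were called higher and 21.9% lower with OVA, and 24.5% and 21.9% without it. The median difference of the 8 genes was 0.84 log2 units with OVA and 0.80 without, against 0.00 over all genes in both. Because the genes were listed with results of these data known, their count is a description and not a test of the list.

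**Figure D1:**
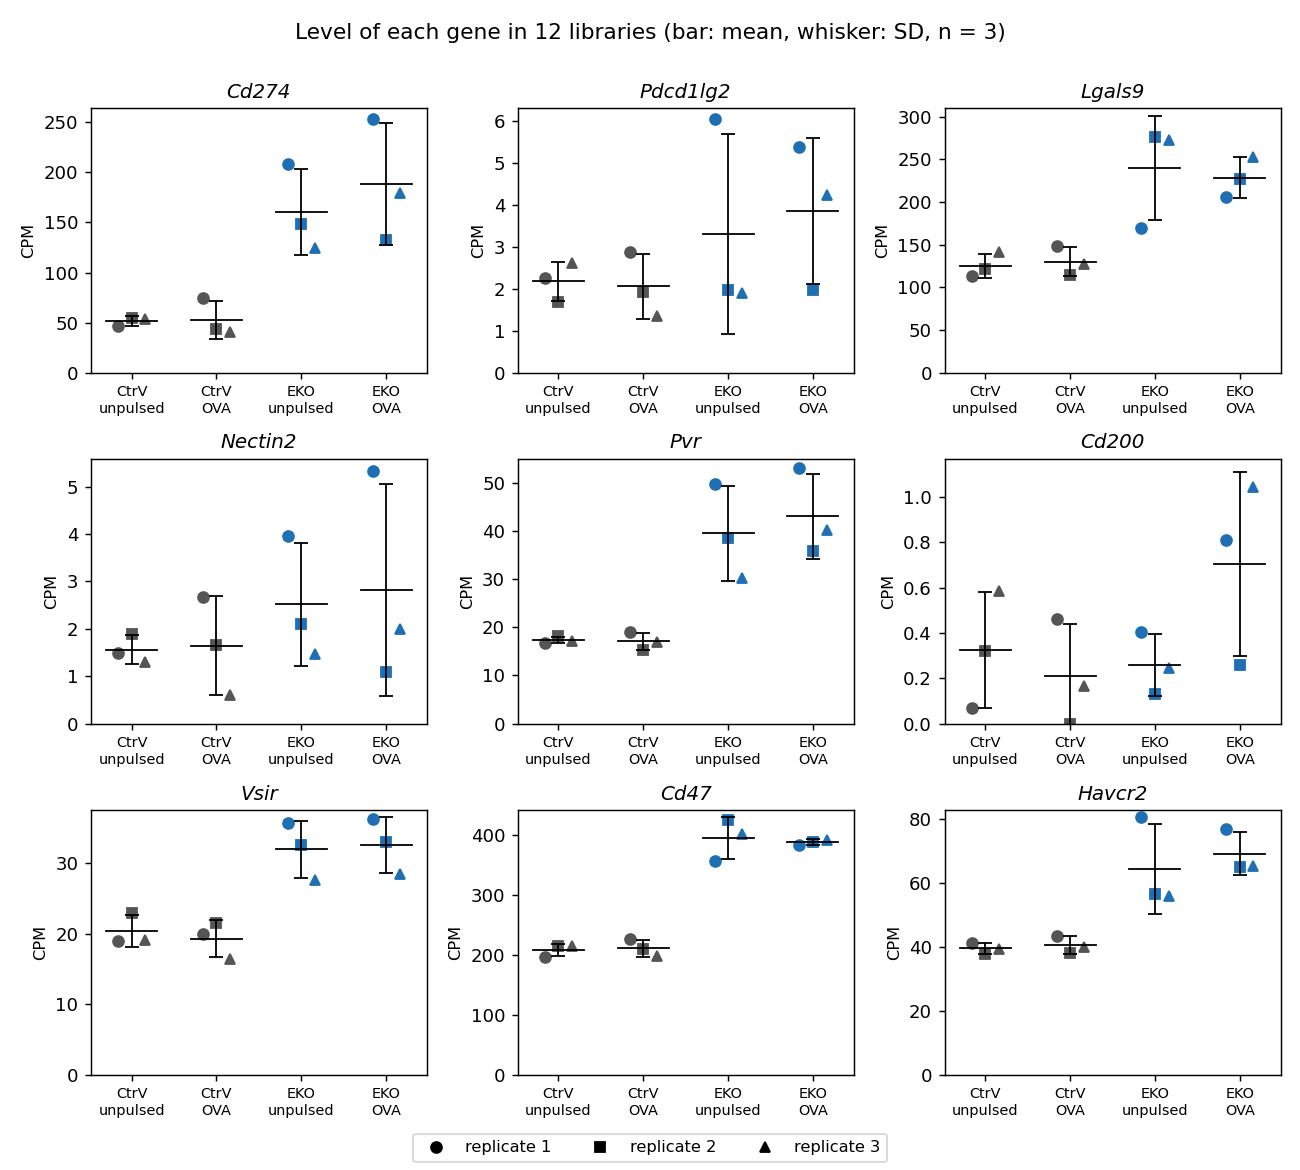
Level of each of the 9 genes in the 12 libraries, in CPM on axes that start at 0, by line and pulsing. Symbols are the 3 replicates, the horizontal bar is the mean and the whisker the SD. For Cd274, Lgals9, Pvr, Vsir, Cd47 and Havcr2 every EKO-labelled library lies above every CtrV library of the same pulsing.

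Every EKO-labelled library lay above every CtrV library for 6 genes (Cd274, Lgals9, Pvr, Vsir, Cd47 and Havcr2), with OVA and again without it. Over all tested genes this held for 27% with OVA and 24.1% without.

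The PD-1 ligand Cd274 had the largest difference of the 8. In OVA-pulsed cells it was at 74.7, 43.3 and 40.75 CPM in CtrV and at 253.0, 132.4 and 179.9 CPM in EKO-labelled libraries. The lowest EKO-labelled library was above the highest CtrV library, and the mean rose from 52.9 ± 18.9 to 188.4 ± 60.8 CPM (SD, n = 3). The fitted rise was 3.58-fold (1.84 log2 units, SE 0.20, 95% interval 1.40 to 2.28, adjusted p = 3.1e-05). Unpulsed cells gave 46.3, 54.7 and 53.8 CPM in CtrV and 208.6, 148.4 and 124.9 CPM in EKO-labelled libraries, again without overlap. There the fitted rise was 2.99-fold (1.58 log2 units, SE 0.20, adjusted p = 1e-04). The log2 change of Cd274 with OVA was higher than that of 97.7% of all tested genes. Of its 3622 exon bases, 14.1% face the antisense gene AC119228.1, which had a mean of 0.0290 CPM.

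Pdcd1lg2, the other PD-1 ligand, was much less abundant, with 41 to 206 counts in a library. Its levels were 2.89, 1.93 and 1.36 CPM in OVA-pulsed CtrV and 5.39, 1.96 and 4.24 CPM in OVA-pulsed EKO-labelled libraries. The groups overlapped, since EKO-labelled replicate 2 sat at the level of the CtrV libraries. The fitted rise was 1.84-fold (0.88 log2 units, SE 0.32, adjusted p = 0.043). Without OVA it was at 2.26, 1.68 and 2.61 CPM in CtrV and at 6.05, 1.98 and 1.896 CPM in EKO-labelled libraries, where replicate 1 alone was high. The difference of 0.49 log2 units (95% interval -0.25 to 1.23, adjusted p = 0.26) did not pass. The OVA call rested on single libraries: it was lost in 6 of 12 fits that left out 1 library, with values of 0.64 to 1.11, and without the replicate number in the model (0.90, adjusted p = 0.16).

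Galectin-9 is a secreted lectin whose receptors include Tim-3, and both genes were expressed. Lgals9 measured 148.3, 114.4 and 127.2 CPM in OVA-pulsed CtrV and 205.5, 226.7 and 253.2 CPM in OVA-pulsed EKO-labelled libraries. The groups did not overlap, and the rise was 1.74-fold (0.80 log2 units, SE 0.16, adjusted p = 0.0017). In unpulsed cells the levels were 113.9, 121.4 and 141.0 CPM against 170.0, 276.9 and 272.9 CPM. Replicate 1 was the lowest of the EKO-labelled libraries here and with OVA, and the rise was 1.901-fold (0.93 log2 units, SE 0.16, adjusted p = 0.00068).

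Havcr2 encodes Tim-3, a receptor that DCs also carry. With OVA it was at 43.5, 38.1 and 40.1 CPM in CtrV and at 76.9, 65.1 and 65.4 CPM in EKO-labelled libraries. Without OVA it was at 41.3, 37.9 and 39.5 CPM and at 80.6, 56.6 and 56.0 CPM. CtrV libraries varied little, and all EKO-labelled libraries were higher. The rise was 1.70-fold with OVA (0.77 log2 units, SE 0.08, adjusted p = 2.2e-05) and 1.61-fold without (0.69, SE 0.08, adjusted p = 5.6e-05).

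Of the Tigit ligands, Pvr was clearly higher. It was at 18.9, 15.4 and 17.0 CPM in OVA-pulsed CtrV and at 53.0, 35.8 and 40.2 CPM in OVA-pulsed EKO-labelled libraries. In unpulsed cells it was at 16.8, 18.1 and 17.2 CPM and at 49.8, 38.5 and 30.2 CPM. The groups did not overlap in either state, and the lowest EKO-labelled library was well above all CtrV libraries. The rise was 2.50-fold (1.32 log2 units, SE 0.13, adjusted p = 1.6e-05) with OVA and 2.23-fold (1.16, SE 0.13, adjusted p = 5.1e-05) without. After Cd274 it was the second largest difference of the 8.

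Nectin2 was near the filter, with 18 to 204 counts in a library. It was at 2.68, 1.66 and 0.597 CPM in OVA-pulsed CtrV and at 5.34, 1.09 and 2.00 CPM in OVA-pulsed EKO-labelled libraries. Unpulsed levels were 1.48, 1.898 and 1.31 CPM in CtrV and 3.96, 2.11 and 1.47 CPM in EKO-labelled libraries. The groups overlapped in both states, and replicate 1 was the highest EKO-labelled library each time. The differences of 0.75 (95% interval -0.10 to 1.59, adjusted p = 0.13) and 0.61 log2 units (-0.30 to 1.51, adjusted p = 0.25) did not pass, and the intervals include rises as large as that of Pvr. Leaving out OVA-pulsed EKO-labelled replicate 2 brought the OVA difference to 1.15 (adjusted p = 0.012), and leaving out replicate 1 of that group brought it to 0.30 (adjusted p = 0.64).

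Cd47, the signal that phagocytes read through SIRPα, had the highest CPM of the 9 genes. OVA-pulsed libraries had 225.7, 209.3 and 197.8 CPM in CtrV and 383.4, 389.1 and 392.2 CPM in EKO-labelled cells. Unpulsed libraries had 196.3, 214.1 and 214.2 CPM and 356.7, 425.3 and 402.1 CPM. The spread within groups was small, and no library crossed between the lines. The SD was 1.15% of the mean in OVA-pulsed EKO-labelled cells and 8.84% in unpulsed EKO-labelled cells, the lowest and highest of the groups. The rise was 1.84-fold (0.88 log2 units, SE 0.07, adjusted p = 3.7e-06) with OVA and 1.89-fold (0.92, SE 0.07, adjusted p = 2.9e-06) without.

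Vsir encodes VISTA, a B7-related protein of myeloid cells and T cells. It was at 19.9, 21.5 and 16.4 CPM in OVA-pulsed CtrV and at 36.2, 33.0 and 28.5 CPM in OVA-pulsed EKO-labelled libraries. In unpulsed cells the levels were 18.9, 22.99 and 19.1 CPM and 35.6, 32.6 and 27.6 CPM. The lines did not overlap, and the rise was 1.69-fold (0.76 log2 units, SE 0.08, adjusted p = 3.2e-05) with OVA and 1.56-fold (0.65, SE 0.08, adjusted p = 0.00012) without.

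Cd200 was close to the detection limit, with 0 to 34 counts in a library, where 3 counts correspond to 0.0785 to 0.110 CPM. Its levels were 0.459, 0 and 0.166 CPM in OVA-pulsed CtrV and 0.811, 0.257 and 1.05 CPM in OVA-pulsed EKO-labelled libraries. Unpulsed CtrV libraries had 0.0705, 0.322 and 0.584 CPM and unpulsed EKO-labelled libraries 0.403, 0.132 and 0.245 CPM. The groups overlapped in both states, and the gene was outside the test over filtered genes. With no filter on low counts it was higher with OVA (1.66 log2 units, SE 0.51, adjusted p = 0.019) and not without it (-0.37, SE 0.61, adjusted p = 0.78).

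**Figure D2:**
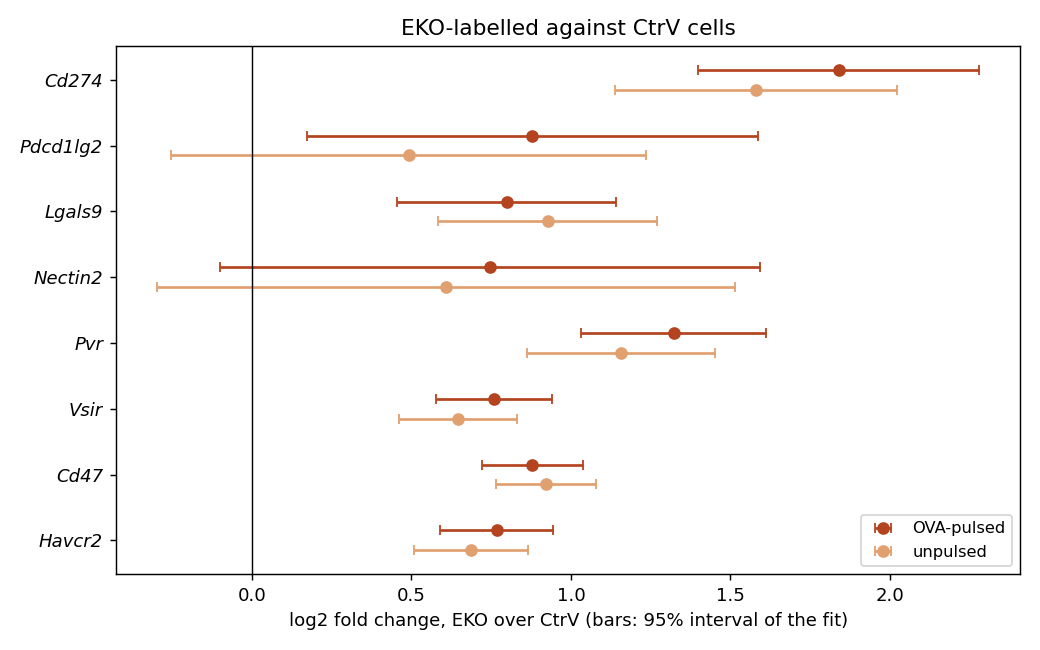
Fitted log2 fold change of the 8 tested genes, EKO-labelled over CtrV, in OVA-pulsed and unpulsed cells, with the 95% interval of the edgeR fit. Cd274 (1.84 and 1.58) and Pvr (1.32 and 1.16) lie farthest to the right, and the intervals of Nectin2 cross 0 in both states.

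Compared per kilobase of exon, the order of the levels was nearly the same in both lines. In OVA-pulsed CtrV cells Lgals9 led with 60.8 ± 8.01 CPM per kb (SD, n = 3), followed by Cd47 with 33.6 ± 2.24. Havcr2 (14.9 ± 1.00) and Cd274 (14.6 ± 5.23) came next and did not differ beyond their spread, while Vsir (3.84 ± 0.52) stood above Pvr (2.79 ± 0.29). Pdcd1lg2, Nectin2 and Cd200 followed with 1.05, 0.471 and 0.0628 CPM per kb. In OVA-pulsed EKO-labelled cells Lgals9 (106.9 ± 11.2) and Cd47 (61.9 ± 0.711) still had the highest means. Cd274 (52.0 ± 16.8), whose spread took in the mean of Cd47, stood above Havcr2 (25.4 ± 2.47). Pvr (7.02 ± 1.45) and Vsir (6.50 ± 0.779) were within their spread. Pdcd1lg2 (1.97 ± 0.889) again stood above Nectin2 (0.804 ± 0.639) and Cd200 (0.212 ± 0.122), with spreads of Pdcd1lg2 and Nectin2 that overlap.

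OVA pulsing moved none of the 8 genes past the test in either line. In CtrV cells the differences ran from -0.10 (Pdcd1lg2) to 0.07 log2 units (Lgals9), and in EKO-labelled cells from -0.06 (Lgals9) to 0.28 (Pdcd1lg2), all with an adjusted p of 1 and overlapping libraries. For Cd47 the 95% intervals were narrow, -0.14 to 0.18 in CtrV and -0.18 to 0.13 in EKO-labelled cells. For Cd274 they were wider, -0.48 to 0.40 and -0.20 to 0.65. These data thus limit a response of Cd47 to OVA more tightly than one of Cd274. Over all genes edgeR called 0% for pulsing in CtrV, 0% for pulsing in EKO-labelled cells and 0% for the dependence of the line difference on pulsing. There were 231, 394 and 269 genes (1.64%, 2.8% and 1.91%) at an unadjusted p under 0.05, below the share of 0.05 expected if no gene differed. DESeq2 and limma voom also called 0 genes in all 3, with 44, 156 and 103 genes by DESeq2 and 246, 423 and 297 by voom at that level.

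**Figure D3:**
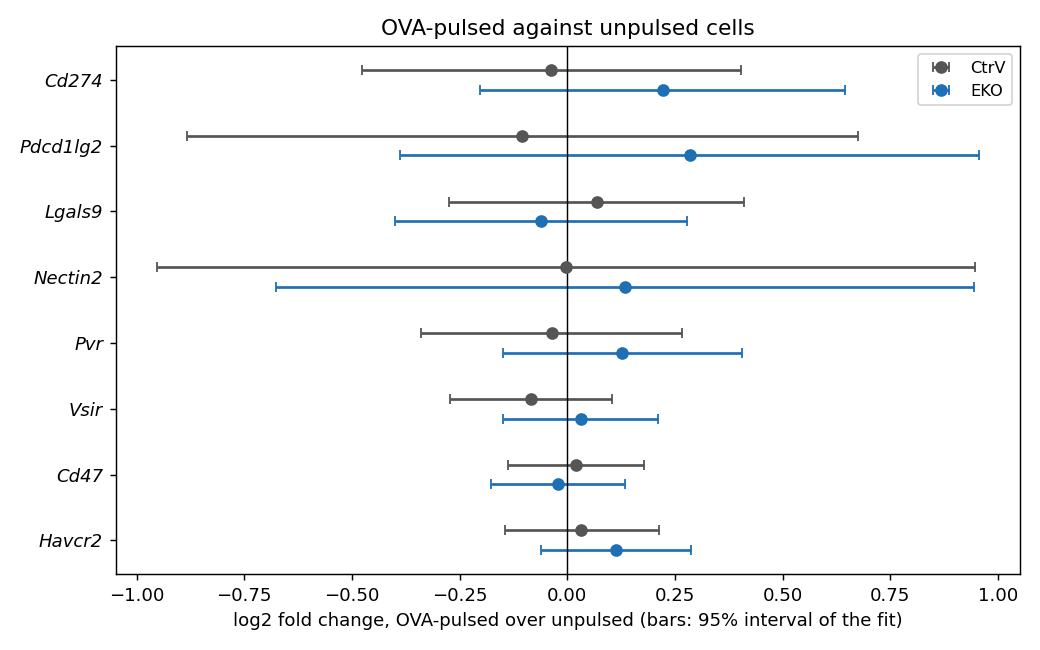
Fitted log2 fold change of the 8 tested genes, OVA-pulsed over unpulsed, in CtrV and in EKO-labelled cells, with the 95% interval of the edgeR fit. All 16 intervals include 0, from the narrow ones of Cd47 to those of Nectin2 in CtrV cells (-0.95 to 0.95).

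The difference between the lines did not depend detectably on pulsing for any of the 8. The change in the line difference ran from -0.13 log2 units for Lgals9 to 0.39 for Pdcd1lg2, and the smallest unadjusted p was 0.35, for Vsir. For Cd274 it was 0.26 (95% interval -0.35 to 0.87, adjusted p = 1) and for Cd47 -0.04 (-0.26 to 0.18, adjusted p = 1).

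**Figure D4:**
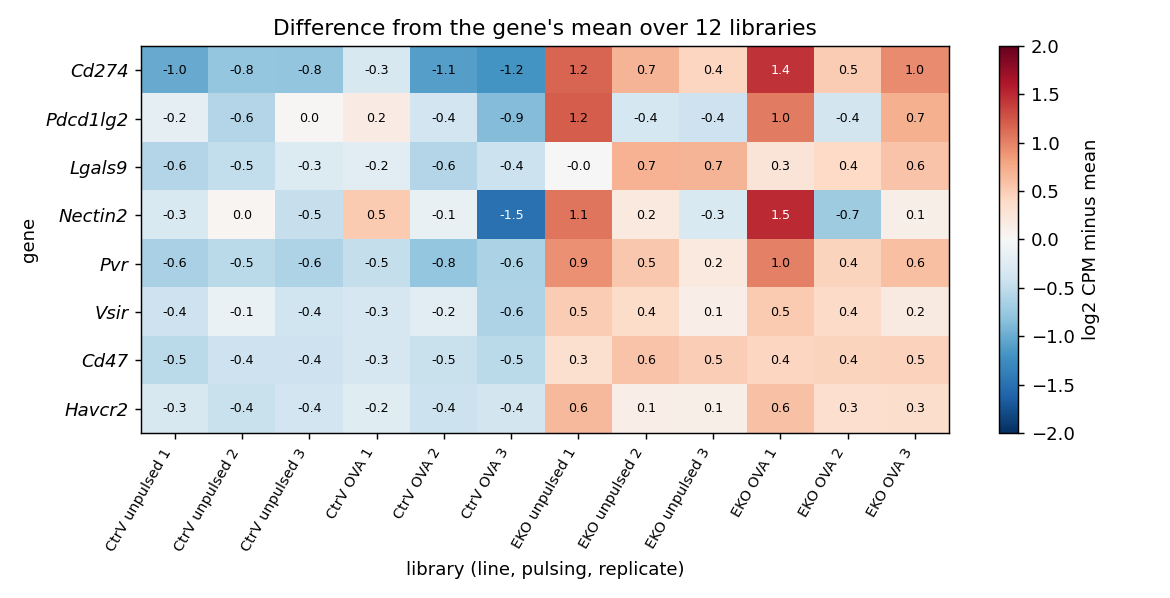
Difference of each library from the mean of the gene over the 12 libraries, in log2 CPM, for the 8 tested genes (rows) and all libraries (columns). Blue is below and red above the mean. CtrV columns are mostly blue and EKO-labelled columns mostly red, and both EKO-labelled replicate 1 columns are the darkest red for Cd274, Pdcd1lg2, Nectin2 and Pvr.

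The EKO-labelled libraries were not alike among themselves. In both replicate 1 libraries, pulsed and unpulsed, 6 of the 9 genes were above all 4 other EKO-labelled libraries (Cd274, Pdcd1lg2, Nectin2, Pvr, Vsir and Havcr2). Lgals9 and Cd47 were below all 4, and Cd200 overlapped. Over all tested genes, 22.4% were above and 21.1% below in this way. For Cd274 replicate 1 spanned 208.6 to 253.0 CPM and the others 124.9 to 179.9 CPM, and for Pvr 49.8 to 53.0 against 30.2 to 40.2 CPM. For Lgals9 the order was the opposite, with 170.0 to 205.5 against 226.7 to 276.9 CPM. Of the 8 DC markers, 3 were above in replicate 1 (Batf3, Flt3 and Zbtb46), 2 below (Cd74 and Ptprc) and 3 overlapped, with Flt3 at 7.35 to 7.85 against 1.80 to 4.40 CPM and Ptprc at 336.4 to 343.0 against 368.8 to 396.8 CPM. The part of this replicate in the line difference was measured by leaving both libraries out, an alternative chosen after the data had been seen. The 6 genes without overlap kept their calls, with Cd274 at 1.70 and Pvr at 1.18 log2 units with OVA. Nectin2 went to 0.20 (adjusted p = 0.76) with OVA, and Pdcd1lg2 fell to 0.73 (adjusted p = 0.093) with OVA and -0.01 (adjusted p = 0.99) without it.

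The genes whose pattern over the 12 libraries was nearest to that of a checkpoint gene were sought among 10081 genes with a mean log2 CPM of at least 3, by the root mean square difference of centred log2 CPM. For Cd274 they were Blnk (0.11), an adaptor of B cell receptor signalling, Gadd45b (0.12), a stress-induced gene, and the semaphorin receptor Plxnc1 (0.14). For Pvr they were 6530402F18Rik (0.11), Dennd5a (0.11) and the receptor kinase gene Grk3 (0.13). The nearest to Pdcd1lg2 were less close: Gsto1 (0.19), Arl5c (0.21) and Pfkfb3 (0.22), a glycolytic regulator. For Nectin2, Ikzf4 (0.34), the chemokine gene Ccl17 (0.36) and Arl5c (0.36) were farther still. Blnk had 12.7 to 19.97 CPM in OVA-pulsed CtrV and 38.1 to 71.7 CPM in OVA-pulsed EKO-labelled libraries, and like Cd274 it was highest in replicate 1. Ccl17 had 724.0, 289.4 and 435.3 CPM in the OVA-pulsed EKO-labelled libraries, the same order as Pdcd1lg2. Blnk and Ccl17 were chosen by their pattern over these same libraries, so a shared order is not a separate observation. The other 4 tested genes varied too little (SD under 0.5) for this comparison.

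Genes beside the checkpoint genes did not all move with them. Plgrkt, 65 bases from Cd274, showed a difference of 0.07 log2 units with OVA (SE 0.07, adjusted p = 0.43), and Jak2, a kinase that acts in interferon signalling, -0.15 (adjusted p = 0.13). Insl6, a hormone-like gene at a mean of 1.77 CPM, passed with 0.86 (adjusted p = 0.043) but had -0.09 without OVA (adjusted p = 0.85), and Ric1 beyond Pdcd1lg2 did not (0.35, adjusted p = 0.073). The neighbour of Lgals9 at 2720 bases is Nos2, inducible nitric oxide synthase, which was higher by 3.36 log2 units (SE 0.13, adjusted p = 2.7e-08), and Ksr1 on the other side differed by -0.05 (adjusted p = 0.56). Around Nectin2 and Pvr the NF-κB family genes Bcl3 (1.01, adjusted p = 8.2e-05) and Relb (0.63, adjusted p = 0.0017) were higher, Tomm40 was lower (-0.15, adjusted p = 0.036), and Clptm1 (0.08) and Rpl7a-ps8 (-0.45) did not pass. Psap near Vsir was lower (-0.67, adjusted p = 3.6e-06), as was Cdh23 (-1.37, adjusted p = 0.011), whose span contains Vsir and which had a mean of 0.746 CPM. Med7 near Havcr2 was higher (0.53, adjusted p = 0.00026). Gm12168 near Havcr2 (0.03), Ift57 near Cd47 (0.03) and Gm5406 near Cd200 (0.15) did not pass.

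The binding partners split evenly. Of 21 genes that encode receptors or other ligands of the 9 proteins, 13 passed the filter. With OVA 5 were higher, 5 lower and 3 did not pass, and the median was 0.06 log2 units. Without OVA the counts were again 5, 5 and 3. All tested genes were split nearly as evenly, with 25.1% higher and 21.9% lower with OVA and 24.5% and 21.9% without. Tigit, the receptor of Pvr and Nectin2 that is best known from T and NK cells, was higher: 1.78, 1.69 and 2.19 CPM in OVA-pulsed CtrV and 7.09, 7.62 and 6.64 CPM in EKO-labelled libraries (1.92 log2 units, SE 0.12, adjusted p = 5.6e-07). Cd80, a co-stimulator that also binds PD-L1 on the same cell, was higher as well (1.51, SE 0.11, adjusted p = 2.2e-06), with Selplg (0.60), which encodes the VISTA ligand PSGL-1, and the PD-L2 ligand Rgmb (0.31). Cd200r1, the inhibitory CD200 receptor, was lower at 96.7, 91.3 and 95.1 CPM in CtrV and 52.9, 64.1 and 61.7 CPM in EKO-labelled libraries (-0.67, SE 0.08, adjusted p = 8.2e-05). Its relative Cd200r4 (-0.60) and the galectin-9 or Tim-3 partners P4hb (-0.53), Hmgb1 (-0.51) and Cd44 (-0.19) were lower too. Cd200r3, at a lower level, was the fifth partner that was higher (0.99). Sirpa, the receptor of CD47, was at 450.1, 450.9 and 473.6 CPM in CtrV and 453.1, 463.0 and 458.0 CPM in EKO-labelled cells (0.00, SE 0.05, adjusted p = 1). PD-1 itself (Pdcd1) had at most 4 counts in any library. The Cd200r genes are near copies of each other and Hmgb1 has many processed copies, so reads may be shared among them.

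Cd274 and Cd80 can be set against each other, since their proteins bind in cis. The ratio of their CPM was 0.429, 0.314 and 0.294 in OVA-pulsed CtrV and 0.558, 0.339 and 0.411 in OVA-pulsed EKO-labelled libraries, which overlapped (two-sided exact permutation test, p = 0.3). Unpulsed cells gave 0.333, 0.346 and 0.310 against 0.478, 0.403 and 0.370, without overlap (exact permutation p = 0.1, the smallest that this unpaired test of 3 against 3 allows). The means there were 0.330 ± 0.018 and 0.417 ± 0.055 (SD, n = 3). Between libraries of the same replicate number the ratio was higher in the EKO-labelled library in 3 of 3 pairs with OVA (by 0.129, 0.025 and 0.117) and in 3 of 3 without (by 0.145, 0.057 and 0.060), which was not tested. This ratio was defined with results of these data known.

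Other inhibitory checkpoint genes fell on both sides. Of 28, 14 passed the filter. With OVA 5 were higher (against 25.1% of all tested genes), 4 lower (against 21.9%) and 5 did not pass (median 0.01 log2 units). Higher were Lilrb4a (1.23, SE 0.07, adjusted p = 2.4e-07) and Pirb (0.54), inhibitory receptors of myeloid cells, the collagen receptor Lair1 (0.70) and Entpd1 (0.27), the ectoenzyme CD39. Cd276, which encodes B7-H3, rose most (2.80) from 0.189, 0.181 and 0.232 CPM to 1.15, 1.83 and 1.32 CPM, below the level set for naming genes. Lower were Cd24a (-1.68, SE 0.09, adjusted p = 1.7e-07), the ligand of Siglec-10 and Siglec-G known as a phagocytosis signal, the galectin Lgals3 (-0.91), Cd300lf (-0.60) and Clec12a (-0.54). Cd24a fell from 481.9, 562.9 and 610.0 CPM to 155.6, 194.2 and 166.5 CPM, opposite to Cd47. Without OVA 6 were higher (against 24.5% of all tested genes), 7 lower (against 21.9%) and 1 did not pass. Among the 7 was Havcr1, at 0 in all unpulsed EKO-labelled libraries and at 0.106, 1.04 and 2.10 CPM in CtrV. Vtcn1, Vsig4, Cd160 and Nt5e had no counts. Pirb and Lilrb4a belong to families of near-identical genes that can share reads.

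Genes that act on Cd274 were more often higher than lower. All 21 passed the filter, 13 were higher, 3 lower and 5 did not pass, with OVA and without (medians 0.34 and 0.31 log2 units). Over all tested genes 25.1% were higher and 21.9% lower with OVA, and 24.5% and 21.9% without. The list joins genes of different action, so its counts give no direction for Cd274. Higher were Socs3 (1.60, SE 0.18, adjusted p = 3.6e-05), which dampens cytokine signals, Stat2 (0.93), a partner in type I interferon signalling, the interferon-γ receptor chain Ifngr2 (0.96) and the NF-κB subunit gene Nfkb1 (0.83). Ifngr1, the ligand-binding chain of the same receptor, was lower (-1.11, SE 0.05, adjusted p = 1e-07), as were Ifnar2 (-0.31) and Myc (-0.27). Irf1, the factor best known for acting on the Cd274 promoter, had a difference of 0.19 with OVA (SE 0.08, adjusted p = 0.072) and passed without OVA at 0.23 (adjusted p = 0.036). Cmtm6, which keeps PD-L1 at the cell surface, was named after its values were seen: it was higher by 0.63 (SE 0.05, adjusted p = 3.1e-06), at 307.2, 312.6 and 312.7 CPM in CtrV and 503.8, 468.0 and 469.5 CPM in EKO-labelled libraries. Surface protein was not measured in these data.

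**Figure D5:**
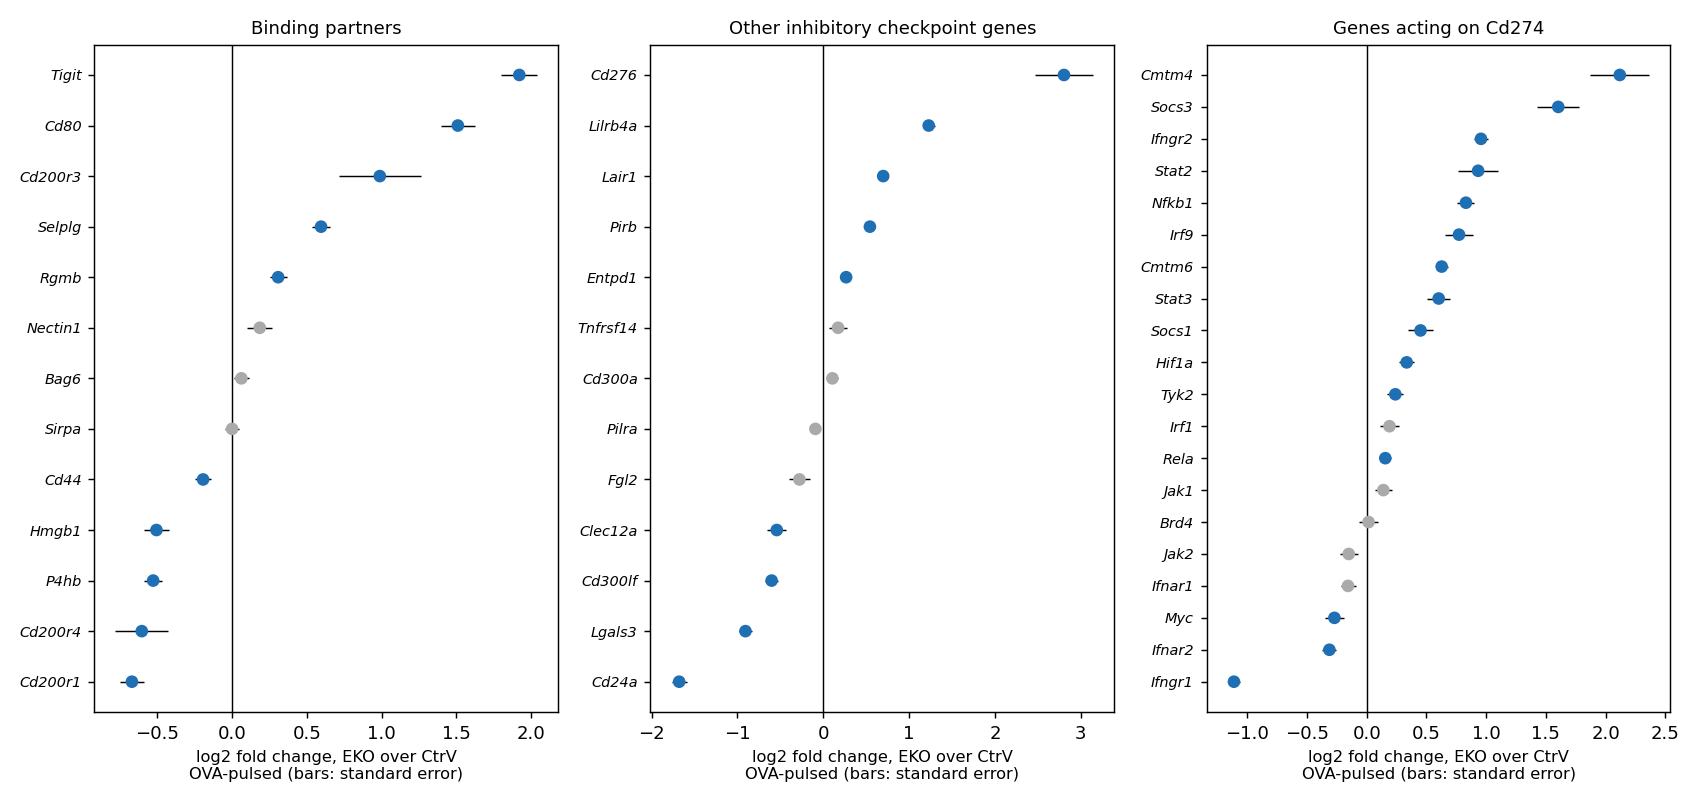
Fitted log2 fold change of the tested genes of 3 lists, EKO-labelled over CtrV in OVA-pulsed cells, with standard errors. Blue points passed the test (adjusted p under 0.05) and grey points did not. Binding partners and other checkpoint genes fall on both sides of 0, from Tigit (1.92) to Cd200r1 (-0.67) and from Cd276 (2.80) to Cd24a (-1.68). Havcr1, near 0 counts in EKO-labelled cells, is left out because its standard error was 2.18, and 1 gene acting on Cd274 is not drawn.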

How the data were processed

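The authors deposited raw read counts per gene for 12 mouse Sp37A3 libraries. Per the paper's methods, STAR placed reads on mm10, keeping 1 of up to 10 equal hits, and featureCounts counted read ends on exon unions. The kit was stranded; the strand setting of the counting is not given in the sources used here. As in those methods, edgeR 4.0.16 (R 4.3.3) was run with TMM, a quasi-likelihood fit over all libraries with group and replicate number, and a filter of log2 CPM over 0 in 2 or more libraries (14079 genes). An adjusted p under 0.05 (Benjamini-Hochberg, all tested genes) was called. CPM use TMM-scaled totals. Symbols, positions and exon lengths come from GENCODE (GRCm38), which named 14056 tested genes and may differ from the authors' annotation. Only the OVA-pulsed line contrast, by edgeR, voom and DESeq2, was tried on simulated counts. Those counts held no effect of the replicate.

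The members and lists were chosen with earlier results of these data known. Named genes are the members, Siglece, up to 5 higher and 5 lower genes per list with an adjusted p under 0.05 with OVA and a mean log2 CPM of at least 1, tested genes within 100 kb of a member, and, for members with an SD of at least 0.5, the 3 nearest in pattern. Others were named after their values were seen, and 1 gene that the rule names is not reported here.

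The pairing rests on the replicate numbers of the labels. Deviations of same-numbered libraries of the 2 lines correlated at 0.45, 0.30 and 0.30 with OVA and at 0.07, -0.01 and 0.27 without. Alternatives were DESeq2 1.42.0, voom of limma 3.58.1, RLE and upper-quartile scaling, other filters and thresholds, no replicate block, another quasi-likelihood fit, the 6 compared libraries alone and leaving out libraries. Library totals were 27116201 to 39698572 counts; 3 counts, taken as the detection limit, are 0.0785 to 0.110 CPM and cover counting error only. No replicate pair was alike within sampling noise (chi-square over its degrees of freedom 4.88 to 45.5).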

Additional observations from a re-analysis of the deposited data

How the results depend on the processing

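Over 24 alternative settings, 933 of 952 fold changes of the checkpoint genes kept their side of the threshold. Of the rest 18 lost a call and 1 gained one, all among the 384 line differences. None of the called values changed sign. The other fold changes, of pulsing and its interplay with the line, were not called in any setting, so they say little about stability. Of the 384 line differences, 383 were positive, the exception being Pdcd1lg2 without OVA when both EKO-labelled replicate 1 libraries were left out (-0.01). Requiring a log2 fold change of at least 1 left 2 called genes with OVA and 2 without, Cd274 and Pvr. Fewer of all tested genes were called at this threshold too, with OVA and without. Without the replicate block the call of Pdcd1lg2 with OVA was lost (0.90, adjusted p = 0.16) and the other member calls stood. Its call was lost in 10 settings in all, among them an adjusted p under 0.01 and leaving out CtrV unpulsed 2, CtrV OVA 1 or 3, EKO unpulsed 2 or EKO OVA 1 or 3 (0.64 to 1.11 over all leave-outs, adjusted p up to 0.18), and the cause was not tested. Leaving out 1 library moved Cd274 between 1.73 and 2.00 and Pvr between 1.24 and 1.41 with OVA. Upper-quartile scaling moved the median of all genes to -0.04 with OVA and -0.05 without, and the share of calls that were higher from 53.3% to 45.6% and from 52.7% to 43%. Among partners 3 rather than 5 were lower with OVA without CtrV OVA 1, CtrV OVA 3 or EKO OVA 1. Among other checkpoint genes 7 rather than 4 were lower with OVA when genes were not filtered (24 tested), and without OVA 4 rather than 7 without the block or EKO unpulsed 2, and 3 without EKO unpulsed 3. With a log2 fold change of at least 1, partners had 2 higher and 0 lower with OVA and 3 and 0 without, other checkpoint genes 2 and 1, then 2 and 2, and genes acting on Cd274 3 and 1, then 4 and 1. An adjusted p under 0.01 left 3 lower partners with OVA and 3 lower checkpoint genes without. With no expression filter 8 of 9 members were called with OVA, Cd200 (1.66, adjusted p = 0.019) among them. The shares of all tested genes called higher or lower in Results belong to the filter and threshold used there. Such shares are not given for other filters and thresholds, so the counts under those cannot be set against a background.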
